A study of Rattus norvegicus with 8 samples.

Results

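The 9 genes described here, Crtac1, Prkd1, Tmem132d, Rgs9, Sntg1, Rasgef1b, Man2a1, Zbtb7c and Ncald, were chosen for their difference between neurons of the left and right nodose ganglia of the rat, and all 9 were found among the 30560 genes listed. The nodose ganglion is the inferior ganglion of the vagus nerve. Nuclei came from untreated Long Evans rats aged 8 weeks, 18 male and 18 female. Each pool joined the left or the right ganglia of 6 rats, so single animals cannot be told apart, and there were 12 pools, 3 for either sex on either side. Pools are written by their labels, as ML1 to ML3 (male, left), MR1 to MR3 (male, right), FL1 to FL3 (female, left) and FR1 to FR3 (female, right). If both ganglia of every rat were used, left and right pools of a sex share rats; the labels do not say which, and the p-values below measure only the spread between these pools.

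Of the 36738 nuclei kept, 25469 (69.3%) were neurons by their marker genes, with 1272 to 3602 neurons and 4919637 to 14335804 unique molecular identifiers (UMIs, counted RNA molecules) per pool. Neurons were split into 24 subclusters, named here by number and leading gene. The marker list of nodose neurons was met by 4 of them, that of jugular neurons (from the neighbouring superior ganglion) by 4, and 16 met neither list. Of the defining markers, P2rx3 was at 266 CPM (UMIs of a gene per 1000000 UMIs of the class) and P2rx2 at 92.4 CPM over all neurons. The sex labels of 2 pools went against Y-linked genes: ML1 had a summed level of 2.88 CPM where the remaining male-labelled pools had 84.4 to 91.3, and FL1 had 88.6 CPM where the remaining female-labelled ones had 2.73 to 3.95. Results that touch sex are therefore given with and without ML1 and FL1. Neuronal RNA was also present in other classes: the summed level of 10 neuron markers in satellite glia was 96.1% of that in neurons. Single markers differed in direction. Rbfox3, Snap25, Syt1 and Scn9a were lower in satellite glia than in neurons (Syt1 at 550 against 1274 CPM), and the other markers were higher. Nefm, the largest part of the sum there, was at 2724 CPM in satellite glia and 1671 CPM in neurons. Each of the 8 sublibraries held nuclei of all pools, and 1865 cell barcodes occurred in more than 1 sublibrary but 0 in more than 1 pool.

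Vagal sensory neurons send their peripheral fibres to the heart, lungs and gut and their central fibres to the brainstem, and left and right vagus nerves are known to serve some organs unequally. The 9 genes do not form 1 pathway. Prkd1 encodes protein kinase D1, which is activated by diacylglycerol and protein kinase C. Rgs9 encodes a regulator of G protein signalling that speeds GTP hydrolysis by Gi/o subunits. Rasgef1b encodes an exchange factor for the small GTPase Rap2, and Ncald encodes neurocalcin delta, a neuronal calcium sensor. Crtac1 encodes a secreted and membrane-bound protein that antagonises the Nogo receptor. Tmem132d encodes a single-pass membrane protein of the nervous system and Sntg1 encodes gamma-1-syntrophin, a scaffold protein of the dystrophin complex. Man2a1 encodes Golgi alpha-mannosidase II, which trims N-glycans, and Zbtb7c encodes a zinc finger protein with a BTB domain.

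The 250 bases before the annotated start were available for 7 of the 9 genes in RefSeq (build GRCr8, with positions in that build only). The motifs searched, on both strands, were the TATA box (TATAAA), the CCAAT box (CCAAT), the GC box (GGGCGG), the E-box (CACGTG) and the cAMP response element (TGACGTCA), and matches are in capitals. Over all 33469 such sequences in the table, a TATA box was present in 12.9%, a CCAAT box in 34.0%, a GC box in 30.5%, an E-box in 5.59% and a cAMP response element in 1.59%. Shown are Prkd1, Crtac1 and Rasgef1b, whose sides did not overlap with subcluster shares held equal, and Rgs9, which stood highest over other neurons in 1 subcluster. Crtac1 is at chr1:251182690-251182939 on the minus strand, Prkd1 at chr6:73774407-73774656 on the minus strand and Rgs9 at chr10:94770388-94770637 on the minus strand. Rasgef1b has 2 entries on the plus strand, at chr14:10644214-10644463 (entry 1) and chr14:10649613-10649862 (entry 2).
Crtac1: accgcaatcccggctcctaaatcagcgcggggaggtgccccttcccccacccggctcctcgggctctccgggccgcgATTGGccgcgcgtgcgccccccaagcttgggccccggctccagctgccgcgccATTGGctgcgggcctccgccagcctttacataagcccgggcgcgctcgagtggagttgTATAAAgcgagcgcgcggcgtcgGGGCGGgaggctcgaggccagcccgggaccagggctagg
Prkd1: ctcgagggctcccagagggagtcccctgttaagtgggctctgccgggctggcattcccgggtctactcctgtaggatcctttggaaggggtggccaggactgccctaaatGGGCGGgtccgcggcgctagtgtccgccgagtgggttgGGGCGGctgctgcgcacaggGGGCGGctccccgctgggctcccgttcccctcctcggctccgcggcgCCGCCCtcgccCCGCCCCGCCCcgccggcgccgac
Rgs9: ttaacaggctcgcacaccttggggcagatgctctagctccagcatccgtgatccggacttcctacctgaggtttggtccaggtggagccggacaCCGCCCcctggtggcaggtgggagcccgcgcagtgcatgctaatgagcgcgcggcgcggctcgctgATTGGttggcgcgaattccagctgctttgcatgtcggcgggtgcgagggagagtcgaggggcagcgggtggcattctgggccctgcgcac
Rasgef1b entry 1: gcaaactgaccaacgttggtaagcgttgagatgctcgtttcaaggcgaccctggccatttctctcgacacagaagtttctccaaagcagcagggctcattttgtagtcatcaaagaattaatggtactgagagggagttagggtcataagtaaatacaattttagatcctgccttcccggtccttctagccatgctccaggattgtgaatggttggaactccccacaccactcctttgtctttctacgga
Rasgef1b entry 2: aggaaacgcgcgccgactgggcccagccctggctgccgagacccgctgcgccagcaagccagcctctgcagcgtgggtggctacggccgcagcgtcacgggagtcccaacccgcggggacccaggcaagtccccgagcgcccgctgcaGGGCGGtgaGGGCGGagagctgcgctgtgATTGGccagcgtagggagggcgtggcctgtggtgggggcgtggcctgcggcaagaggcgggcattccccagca
The Crtac1 sequence held 1 TATA box, 2 CCAAT box and 1 GC box match, and 73.2% of its bases were G or C. That of Prkd1 held 6 GC box matches, the last of which share a base, and no match to the other motifs. That of Rgs9 held 1 CCAAT box and 1 GC box match. The entries of Rasgef1b differed: entry 1, with 46.8% G or C, held none of the motifs, and entry 2, with 73.6% G or C, held 1 CCAAT box and 2 GC box matches. The median over all sequences was 51.2% G or C. Tmem132d (63.6% G or C) held none of the motifs, Man2a1 held 1 CCAAT box and 4 GC box matches, and Zbtb7c held 2 GC box matches. A match describes these letters and is not a binding site.

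In neurons, 8 of the 9 genes were higher on the right and Rasgef1b was higher on the left, and for all 9 the 6 left pools and the 6 right pools did not overlap. These values chose the genes, so they are a description, and calls of the 9 genes in this contrast follow from that choice. In the fit over all 13944 genes 20 genes (0.143%) had an adjusted p under 0.05 (edgeR's quasi-likelihood test), and the 6 left pools lay wholly apart from the 6 right pools for 62 genes (0.445%). Of the 20, 15 (0.108%) were higher and 5 (0.0359%) lower on the right. They included 8 of the 9 genes and not Sntg1, from which nothing is read. The number was 1 to 5 with any 1 of the 12 pools left out, and 0 without both ML1 and FL1. Levels below are CPM scaled by the normalisation of that fit, given as lowest, median and highest pool, and log2 differences are right over left with their standard error (SE).

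Among the signalling genes, Prkd1 (ENSRNOG00000004165) was at 287, 305 and 325 CPM in left pools and at 355, 363 and 395 CPM in right pools. Every right pool lay above every left pool, and the log2 difference was 0.28 ± 0.04. Rgs9 (ENSRNOG00000003800) was at 101, 126 and 138 CPM on the left and at 143, 148 and 174 CPM on the right. The sides were close at their edges, 138 against 143 CPM, and the log2 difference was 0.34 ± 0.06.

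Rasgef1b (ENSRNOG00000002345) was at 153, 162 and 183 CPM on the left and at 120, 134 and 142 CPM on the right. It was the only one of the 9 genes that was lower on the right, by a log2 difference of -0.31 ± 0.05. Ncald (ENSRNOG00000042978), the gene with most UMIs of the 9, was at 373, 420 and 446 CPM on the left and at 464, 509 and 534 CPM on the right. Its lowest left pool was ML1, and the log2 difference was 0.27 ± 0.05.

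Of the genes for secreted, membrane and scaffold proteins, Crtac1 (ENSRNOG00000015220) had the largest log2 difference of the 9, 0.47 ± 0.05. It was at 141, 160 and 183 CPM on the left and at 208, 222 and 231 CPM on the right, a mean of 159 ± 14.0 CPM against 220 ± 8.83 CPM (SD, n = 6 pools each). Tmem132d (ENSRNOG00000008447) was at 82.5, 105 and 114 CPM on the left and at 125, 133 and 152 CPM on the right. Pools ML1 and MR1 were its lowest and highest, and the log2 difference was 0.42 ± 0.08. Sntg1 (ENSRNOG00000007294), the gene with fewest UMIs, was at 21.7, 25.3 and 28.0 CPM on the left and at 29.4, 30.6 and 34.5 CPM on the right, a log2 difference of 0.30 ± 0.06.

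Man2a1 (ENSRNOG00000015439) varied little on the left, at 208, 212 and 219 CPM, and was at 230, 251 and 265 CPM on the right, a log2 difference of 0.23 ± 0.04. Its right pools lay in separate ranges by labelled sex, from 230 to 241 CPM for the male-labelled and from 261 to 265 CPM for the female-labelled. Zbtb7c (ENSRNOG00000047924) was at 42.2, 44.3 and 52.2 CPM on the left and at 52.6, 57.3 and 71.3 CPM on the right, a log2 difference of 0.38 ± 0.07. Its highest left pool and its lowest right pool were the closest of any of the 9 genes in CPM.

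**Figure D1:**
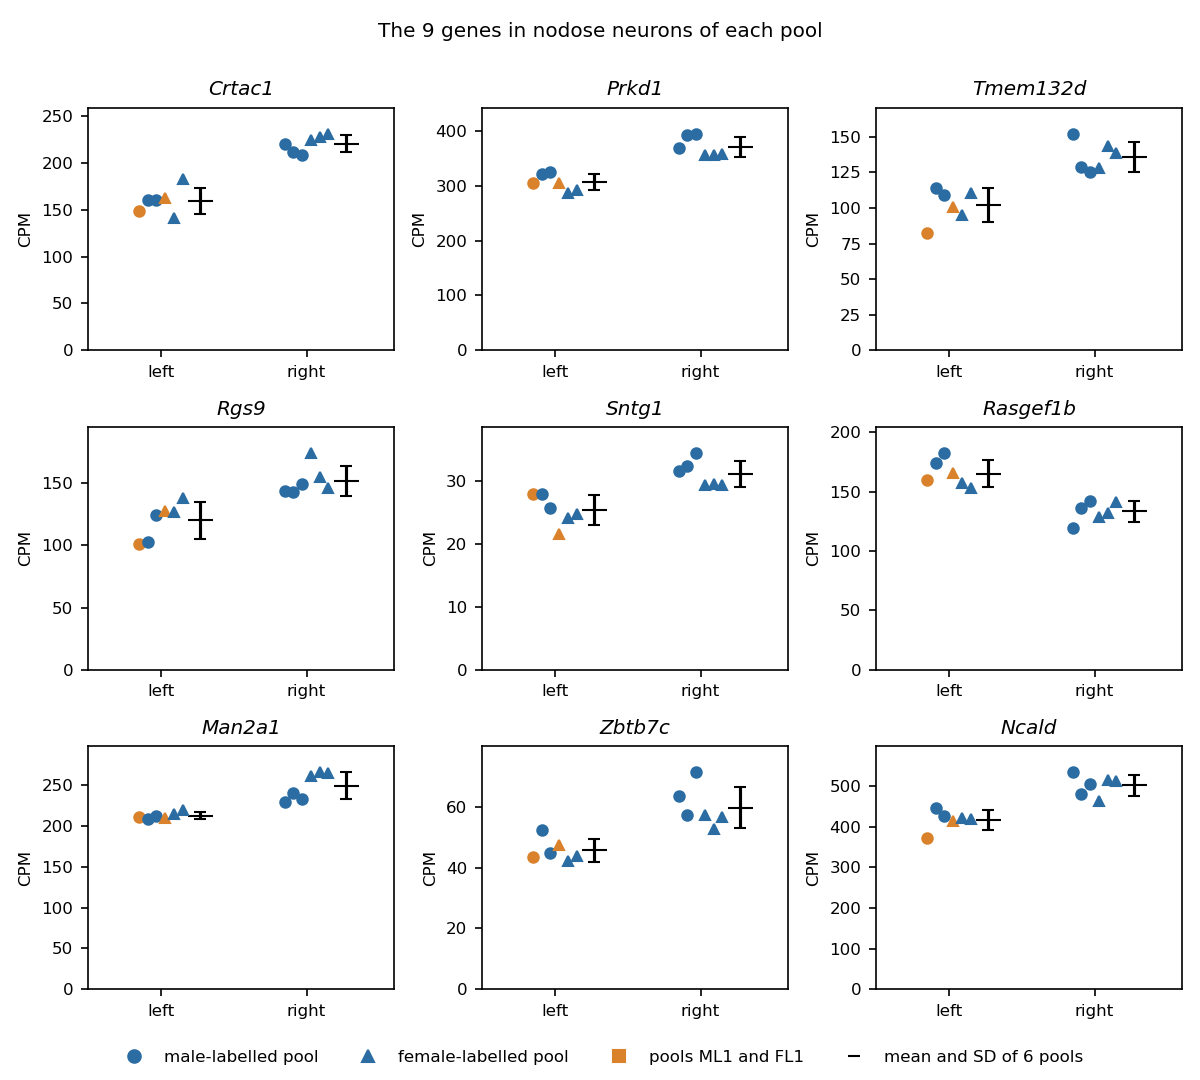
Level in neurons (CPM scaled by the fit's normalisation, axes from 0) of each gene in each of the 6 left and 6 right pools; circles are male-labelled, triangles female-labelled, orange points ML1 and FL1, and bars the mean and SD of 6 pools. Right pools lie above left pools for 8 genes and below them for Rasgef1b.

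The 8 sublibraries are technical splits of the same pools and so add no replicates. The log2 difference ranged from 0.34 to 0.57 over sublibraries for Crtac1 and from -0.37 to -0.15 for Rasgef1b. Without ML1 and FL1, all 9 genes kept their direction, with Crtac1 at 0.44 ± 0.07, Prkd1 at 0.27 ± 0.04, Tmem132d at 0.34 ± 0.07, Zbtb7c at 0.37 ± 0.07 and Rasgef1b at -0.32 ± 0.06. Markers of satellite glia were measured in the same neuron sums: 7 of them summed to 126 ± 17.5 CPM in left neurons (range 104 to 145) and 165 ± 33.7 CPM in right neurons (range 107 to 202), and the ranges overlapped. The part of glial RNA in these results was not tested.

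Of the 9 genes, 8 were high in the same subcluster. Subcluster n3, led by Xylt1 with Sctr (the secretin receptor), Cckar (a cholecystokinin receptor) and Chrna3 (a nicotinic receptor subunit) among its leading genes, held 1750 neurons. Crtac1, Tmem132d, Rgs9, Zbtb7c and Ncald had their highest level of the 24 subclusters there, Prkd1, Sntg1 and Man2a1 their second highest, and Rasgef1b ranked 11th. Against all other neurons, the level in n3 was 7.39-fold for Rgs9, 5.76-fold for Sntg1, 5.33-fold for Crtac1, 5.11-fold for Zbtb7c, 4.58-fold for Tmem132d, 4.04-fold for Man2a1, 3.83-fold for Ncald, 2.66-fold for Prkd1 and 0.98-fold for Rasgef1b. Subclusters were made from these same nuclei, so these levels are a description.

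That subcluster took a larger share of neurons on the right. It held 3.05, 4.95 and 6.06% of the neurons of left pools (lowest, median, highest) and 7.67, 8.52 and 9.54% of those of right pools, a mean of 4.90 ± 1.06% against 8.56 ± 0.83%. The sides did not overlap. Because the 9 genes could themselves shape the subclusters, neurons were clustered again after leaving out 956 genes, which comprise every gene with an unadjusted p under 0.05 by side and with them all 9 genes. The cluster that matched n3 held 1642 neurons and 91.5% of those of n3, and its share was 4.58 ± 0.98% on the left (2.90 to 5.62%) and 8.05 ± 0.70% on the right (7.36 to 8.98%). The pools again did not overlap, and 6 of the 9 genes (Crtac1, Prkd1, Tmem132d, Rgs9, Zbtb7c and Ncald) were highest in that cluster. Both clusterings used the same nuclei and pools, and n3 was singled out for its high levels of genes chosen by side. Leaving out genes does not undo that choice, so the shares of n3 are a description.

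Of the other large subclusters, n7 (led by Itgae) held 10.1 ± 1.83% of neuron UMIs on the left and 7.66 ± 2.38% on the right, and n14 (led by Cysltr2) 8.04 ± 2.13% and 5.69 ± 0.77%. Tmem132d and Zbtb7c had their lowest or next to lowest levels in n7 and n14 among subclusters with at least 10 nuclei in every pool. Subcluster n5 (led by Nxph1), where Rgs9 and Zbtb7c stood second, held 3.24 ± 0.40% on the left and 4.27 ± 0.81% on the right.

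**Figure D2:**
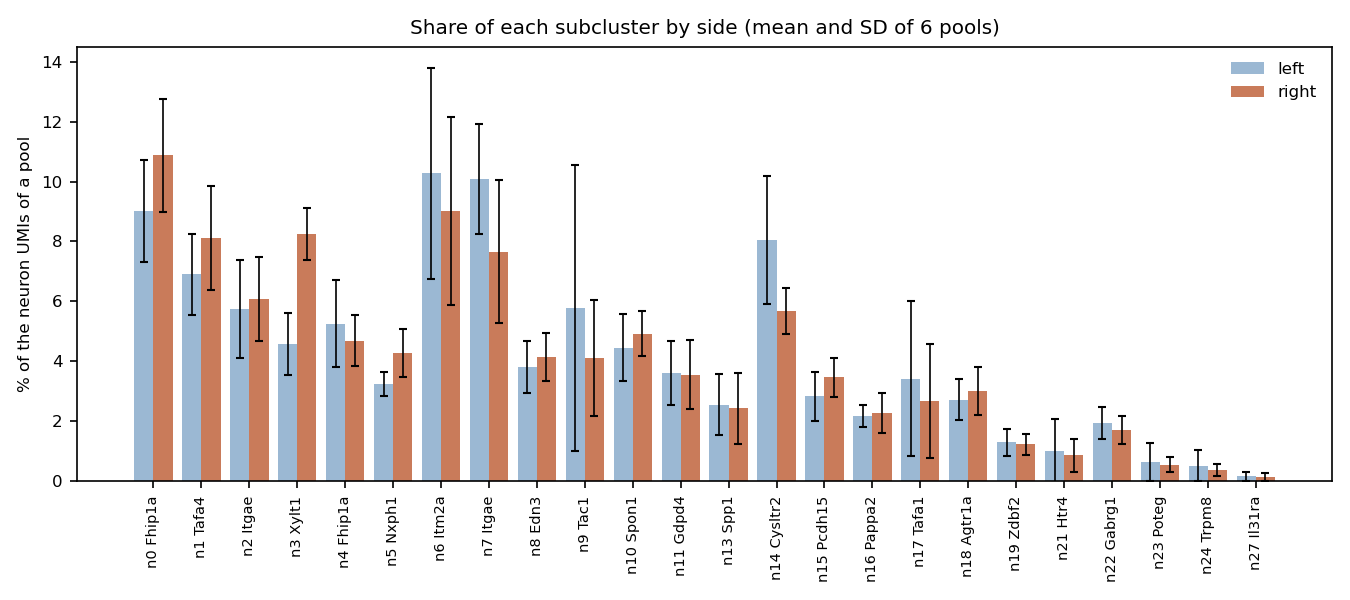
Share of the neuron UMIs of a pool held by each of the 24 subclusters, for left and right pools; bars are means and error bars SDs of 6 pools. Subcluster n3, led by Xylt1, stands at 4.58% on the left and 8.25% on the right.

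Subclusters were then given the same share in every pool. This used the 20 subclusters present in every pool, while values as measured used all 24. Left out were n23 and n24, the highest for Rasgef1b, n21, the highest for Prkd1, and n27, the highest for Man2a1. Subcluster n24 was also the highest for Sntg1. With equal shares the side difference of the 9 genes fell into 2 sets. For Rasgef1b, Crtac1 and Prkd1 left and right pools still lay apart. Rasgef1b moved from 158 ± 9.82 CPM on the left to 128 ± 6.96 CPM on the right, a log2 difference of -0.31, against -0.30 with the shares as measured. Prkd1 was at 309 ± 16.1 and 356 ± 13.9 CPM, a log2 difference of 0.21 against 0.29 as measured. Crtac1 was at 176 ± 6.15 and 208 ± 11.1 CPM, a log2 difference of 0.23 against 0.48 as measured.

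The other 6 genes were close to level. With equal shares the log2 difference was 0.10 for Zbtb7c, 0.09 for Tmem132d, 0.04 for Rgs9, 0.04 for Man2a1, 0.04 for Ncald and 0.03 for Sntg1, and left and right pools overlapped for each. Rgs9, for example, was at 137 ± 12.1 CPM on the left and 141 ± 6.46 CPM on the right. With the clusters made without the 956 genes, the corresponding log2 differences were -0.30 for Rasgef1b, 0.21 for Prkd1, 0.24 for Crtac1, 0.13 for Tmem132d, 0.12 for Zbtb7c, 0.07 for Man2a1, 0.06 for Ncald, 0.05 for Rgs9 and 0.03 for Sntg1. The pools did not overlap for the first 4 of these, Tmem132d included, at 114 ± 3.68 against 125 ± 5.29 CPM.

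Leaving n3 out of the sums gave smaller side differences for 8 of the 9 genes. Those 8 stood high in n3, which held a larger share on the right, so a smaller difference follows from its removal. Nothing is read from the direction of this change, and the sizes are a description. The log2 difference was then 0.33 ± 0.06 for Crtac1, 0.35 ± 0.08 for Tmem132d, 0.30 ± 0.07 for Zbtb7c, 0.21 ± 0.04 for Prkd1, 0.20 ± 0.05 for Ncald, 0.18 ± 0.06 for Rgs9, 0.14 ± 0.04 for Man2a1 and 0.11 ± 0.09 for Sntg1. Rasgef1b stood at -0.32 ± 0.05. In that fit 0 of the 9 genes and 2 of all 13754 genes were called.

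The difference in CPM can be split into a part from unequal shares and a part from unequal levels within subclusters. For Rgs9, 27.4 of 30.5 CPM came from shares, of which n3 gave 26.4 CPM. For Ncald, 72.7 of 91.5 CPM came from shares, with 55.1 CPM from n3 and 13.5 CPM from n0 (led by Fhip1a). For Tmem132d the shares gave 27.4 of 35.3 CPM, for Man2a1 29.8 of 38.8 CPM, for Zbtb7c 10.7 of 13.0 CPM and for Sntg1 4.78 of 5.61 CPM.

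Crtac1 was divided about evenly, with 33.6 CPM from shares and 29.8 CPM from levels. For Prkd1 levels gave the larger part, 42.6 CPM against 22.4 CPM from shares. For Rasgef1b the shares gave -0.09 CPM and the levels -29.2 CPM. In that gene n3 added 5.38 CPM through its share, while n7 and n14 contributed -4.78 and -4.53 CPM.

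**Figure D3:**
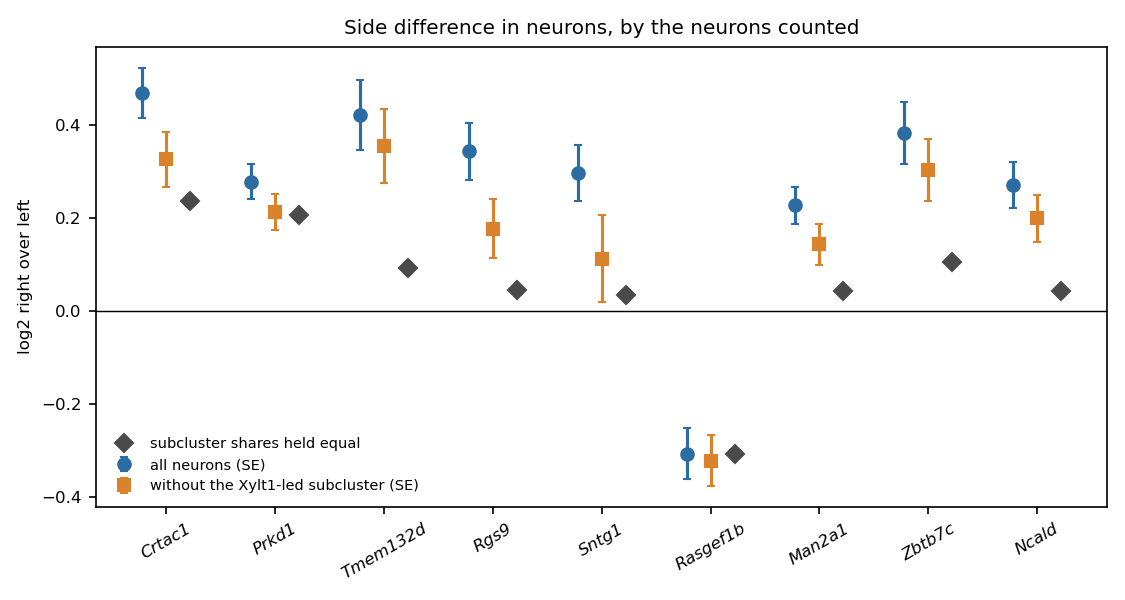
Log2 difference, right over left, of each gene in all neurons (circles, SE), without subcluster n3 (squares, SE) and with subcluster shares held equal (diamonds). The diamonds use only the 20 subclusters present in every pool. Rasgef1b stays near -0.31 in all 3, while Rgs9, Man2a1, Ncald and Sntg1 fall to between 0.03 and 0.04 with equal shares. Depth per neuron was not made equal in any of the 3.

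Within subclusters the side difference was read for 139 pairs of a gene and a subcluster with at least 100 UMIs of the gene and 10 nuclei in every pool. In 7 of the 139 left and right pools lay apart, against 0.313% of such pairs over all genes; since the genes were chosen on the same nuclei, nothing is read from this count. Crtac1 was higher on the right in 15 of 16 subclusters and Rasgef1b was higher on the left in 13 of 17. Prkd1 was higher on the right in 13 of 19 and Man2a1 in 14 of 19. Ncald was higher on the right in 10 of 19 subclusters, Rgs9 in 10 of 17, Tmem132d in 8 of 14, Zbtb7c in 7 of 11 and Sntg1 in 6 of 7. The genes were chosen by this contrast and the subclusters come from the same pools, so these counts of direction are also a description. They were not set beside such counts over all genes.

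Rasgef1b accounted for 3 of the 7 pairs. In n1 (led by Tafa4) its left pools were at 226, 272 and 305 CPM and its right pools at 147, 185 and 200 CPM. In n2 (led by Itgae) they were at 260, 287 and 304 CPM and at 144, 198 and 218 CPM. In n7, also led by Itgae, they were at 215, 240 and 281 CPM and at 99.0, 149 and 206 CPM, so that in all 3 subclusters every left pool exceeded every right pool.

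Crtac1 in n1 was at 74.5, 90.1 and 102 CPM on the left and at 116, 175 and 185 CPM on the right, and MR1 was its lowest right pool. Prkd1 in n7 was at 205, 260 and 289 CPM on the left and at 317, 360 and 391 CPM on the right. Ncald in n0 was at 552, 677 and 728 CPM on the left and at 734, 819 and 869 CPM on the right. The last of the 7 pairs, picked from the 139 for their pools, was Tmem132d in n15 (led by Pcdh15), at 215, 317 and 349 CPM on the left and 367, 441 and 505 CPM on the right.

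Inside n3 the sides overlapped for all 9 genes. Crtac1 was at 652, 741 and 777 CPM in left pools and 723, 824 and 974 CPM in right pools. Prkd1 was at 724, 748 and 824 CPM on the left and 794, 846 and 877 CPM on the right. Rgs9, Man2a1, Ncald, Zbtb7c, Tmem132d and Rasgef1b had a lower mean on the right than on the left in n3, for example 1551 ± 60.7 against 1475 ± 78.9 CPM for Ncald and 746 ± 93.3 against 707 ± 52.7 CPM for Rgs9.

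The level of each gene across neuron subclusters followed its own order. Rgs9 was the most restricted to n3, at 727 ± 75.1 CPM (SD, n = 12 pools), above every pool of the next subcluster, n5, at 242 ± 60.6 CPM. Ncald in n3, at 1513 ± 78.0 CPM, also lay above every pool of the next, n18 (led by Agtr1a), at 971 ± 124 CPM. Crtac1 had 3 high subclusters: n3 at 777 ± 91.3 CPM and n15 at 745 ± 90.7 CPM did not differ beyond their spread, n8 (led by Edn3) followed at 607 ± 49.7 CPM, and the fourth, n4 (led by Fhip1a), was at 242 ± 51.5 CPM.

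Tmem132d was highest in n3 at 445 ± 40.3, n15 at 370 ± 85.7, n0 at 347 ± 41.8 and n16 (led by Pappa2) at 294 ± 39.5 CPM. Next came n5 at 264 ± 42.7 and n19 (led by ENSRNOG00000009522) at 258 ± 71.1 CPM. Each of these subclusters overlapped the next in its pools. The lowest was n14 at 10.3 ± 5.35 CPM. Zbtb7c was highest in n3 at 217 ± 33.6 CPM and in n5 at 163 ± 48.1 CPM, with overlapping pools, and was at 7.43 ± 3.64 CPM in n7. Sntg1 was highest in n24 (led by Trpm8, the cold receptor) at 162 ± 106 CPM over the 7 pools with at least 10 of its nuclei, and n3 at 125 ± 17.8 CPM and n15 at 118 ± 41.9 CPM lay within that spread.

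Prkd1 was highest in n21 (led by Htr4, a serotonin receptor) at 843 ± 145 CPM over 8 pools, within the spread of n3 at 800 ± 52.1 CPM. Of the 9 genes it varied least between subclusters, with a highest level of 2.63 times the median subcluster. Man2a1 was at 1007 ± 228 CPM in n27 (led by Il31ra), which had 57 nuclei and 2 pools with at least 10, at 789 ± 82.4 CPM in n3 and at 456 ± 44.7 CPM in n1. Rasgef1b stood apart from the other genes, with 964 ± 292 CPM in n23 (led by Poteg) over 7 pools and 350 ± 132 CPM in n24, and its lowest level, 23.8 ± 14.3 CPM over 11 pools, in n17 (led by Tafa1).

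**Figure D4:**
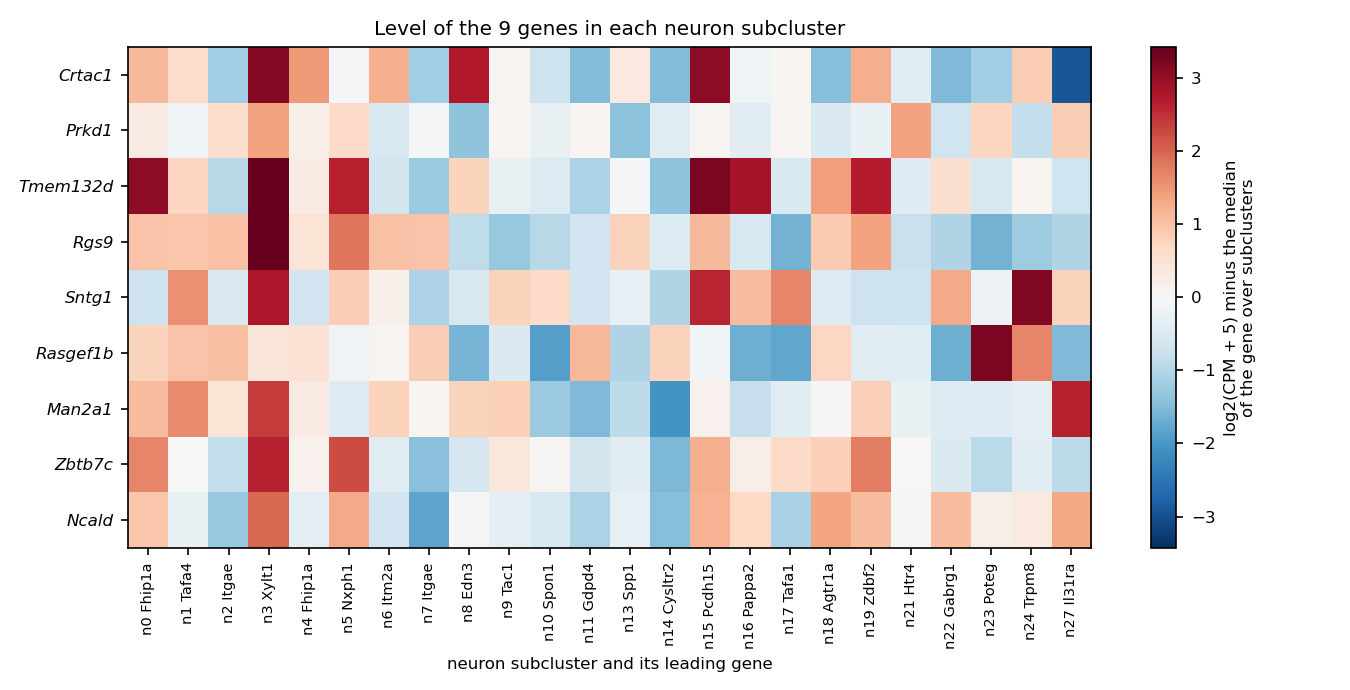
Level of each gene (rows) in each neuron subcluster (columns), as log2(CPM + 5) minus the median of that gene over the 24 subclusters; colours compare subclusters within a row and not genes with each other. Column n3, led by Xylt1, is the highest or second highest for 8 genes, and Rasgef1b is highest in n23.

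Across the 24 subclusters, Tmem132d and Zbtb7c had the most similar patterns of the 36 pairs of these genes (Pearson r of log2(CPM + 5) 0.85), followed by Tmem132d and Ncald (0.79) and Zbtb7c and Ncald (0.68). Rasgef1b and Ncald had the lowest (-0.14). Among 6769 genes with a mean of at least 20 CPM, Fam102b (0.89) and Abcb1b (0.88) were most like Rgs9. Mcu was most like Prkd1 (0.84), P3h3 most like Rasgef1b (0.82), Wipi1 most like Man2a1 (0.78), R3hcc1l most like Crtac1 (0.75), Dlgap2 the named gene most like Ncald (0.81), Inpp5a the named gene most like Sntg1 (0.78) and Dock10 the named gene most like Tmem132d (0.86). These are descriptions over subclusters of unequal size and depth.

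Outside neurons, levels were read beside the sum of 10 neuron markers, since neuronal RNA reached every class. That sum is a rough measure, since single markers differed in direction between satellite glia and neurons. In satellite glia (5217 nuclei), where that sum was 96.1% of the neuron level, Rasgef1b was at 31.8%, Man2a1 at 42.1% and Crtac1 at 51.1% of their neuron level, and the other 6 genes at 63.5 to 87.9%. In myelinating Schwann cells (2133 nuclei), where the marker sum was 45.0%, Sntg1 was at 113% and Prkd1 at 92.2%, with Prkd1 at 301 ± 47.3 CPM over the 12 pools. Both lay above the marker sum, as did Zbtb7c at 77.1% and Ncald at 50.5%, and the other 5 genes were at 18.7 to 36.8%.

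In nuclei named as sympathetic neuron or chromaffin-type cells (408 nuclei), Tmem132d was at 455.5% of its neuron level and Rgs9 at 254%. Tmem132d was at 552 ± 118 CPM there and Rgs9 at 348 ± 97.2 CPM, over the 10 pools with at least 20 such nuclei. Ncald (228%), Sntg1 (224%) and Zbtb7c (186%) were also above neurons, while Prkd1 (57.1%), Man2a1 (55.1%), Crtac1 (35.1%) and Rasgef1b (33.3%) were below, against 83.5% for the marker sum. Zbtb7c was further at 328% in mural cells (664 nuclei), with 182 ± 56.3 CPM over 12 pools and a marker sum of 27.2%, and at 1175% in fibroblasts, which numbered 73 nuclei with 71 UMIs of the gene. Rasgef1b was below its neuron level in every class named.

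**Figure D5:**
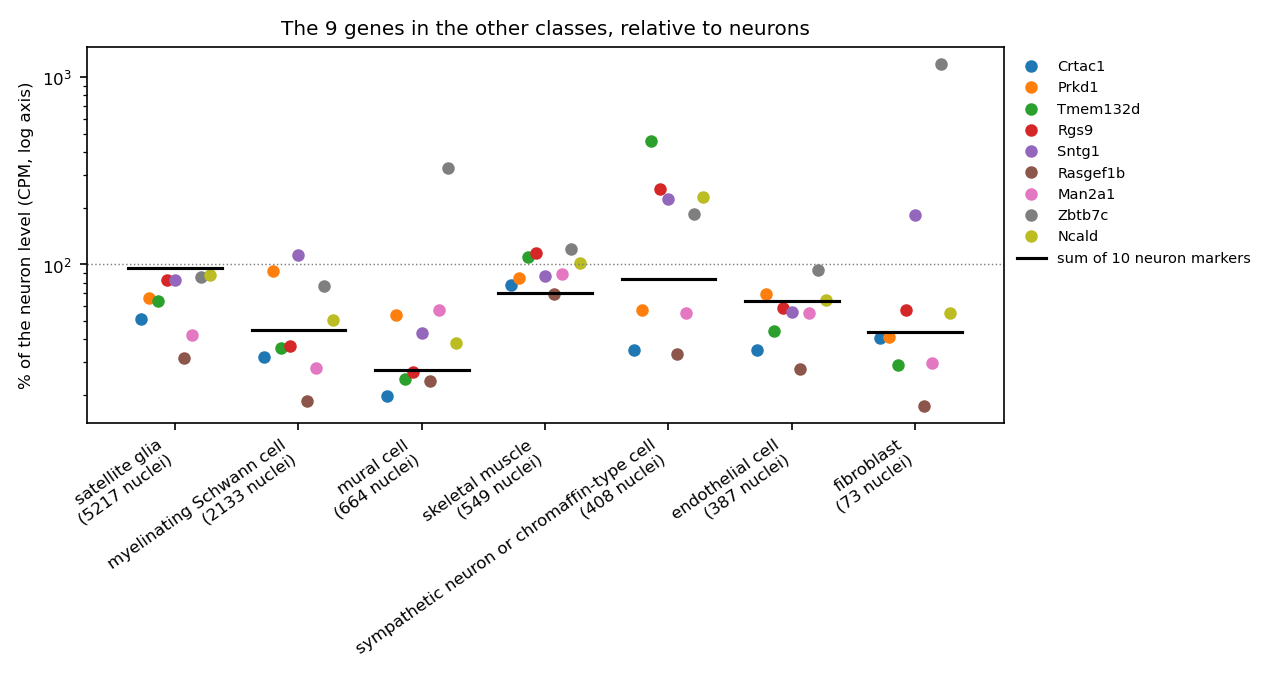
Level of each gene in the named non-neuronal classes as a percentage of its level in neurons (log axis, dots), beside the sum of 10 neuron markers (black bars). Zbtb7c in mural cells and fibroblasts and Tmem132d in sympathetic or chromaffin-type nuclei stand farthest above the bars.

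The genes were chosen in neurons, so their side difference was tested in satellite glia and myelinating Schwann cells of the same pools; endothelial cells, with as few as 11 nuclei in a pool, were not tested. In satellite glia 0 of the 9 genes and 0 of 11024 genes (0.0%) had an adjusted p under 0.05 in edgeR's quasi-likelihood test. DESeq2 also called 0. At an unadjusted p under 0.05, 4.4% of all genes passed in edgeR and 277 of 11024 in DESeq2. Of the 9, Crtac1 alone passed, in edgeR and in DESeq2. It was at 68.6, 88.5 and 99.0 CPM on the left and at 90.9, 107 and 122 CPM on the right, with overlapping pools, a log2 difference of 0.30 ± 0.10 and an adjusted p of 1.00 in edgeR. With classes from clustering resolution 0.5 the log2 difference of Crtac1 was -0.02 ± 0.10, so this value depends on the clustering. Without FR1 or without FL3 2 of the 9 genes passed, Crtac1 and Rgs9. With classes from clustering resolution 2 the number was also 2.

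Rasgef1b in satellite glia was at 34.8, 44.9 and 83.5 CPM on the left and at 34.0, 45.2 and 49.3 CPM on the right, a log2 difference of -0.19 ± 0.14. The other 7 genes had log2 differences from -0.15 to 0.15. The neuron marker sum in these nuclei was 9158 ± 687 CPM on the left and 9320 ± 852 CPM on the right, and its part in the Crtac1 value was not tested. Of the partner genes followed below, Gpr158, which encodes an orphan receptor that binds R7 RGS proteins and is named here after its values were seen, had left and right pools that lay apart (0.236% of all genes), at 275 ± 12.4 and 230 ± 23.1 CPM. Its log2 difference was -0.26 ± 0.07 with an adjusted p of 1.00 in edgeR.

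In myelinating Schwann cells 8 of the 9 genes had enough UMIs to be tested (not Rasgef1b), and 0 of the 8 and 0 of 5530 genes (0.0%) were called by edgeR's quasi-likelihood test or by DESeq2. At an unadjusted p under 0.05, 3 of the 8 passed in edgeR and 1 (Rgs9) in DESeq2. Of all genes 5.64% passed in edgeR and 157 of 5530 in DESeq2. Rgs9 was at 18.9, 30.9 and 76.9 CPM on the left and 39.9, 59.4 and 103 CPM on the right (log2 0.83 ± 0.29). Tmem132d had a log2 difference of 0.66 ± 0.28, and that of Sntg1 was -0.61 ± 0.29. With 1 pool left out the number that passed was 1 (without ML1 or FR2) to 4 (without ML2), and the log2 difference of Rgs9 ran from 0.48 without ML1 to 1.18 without FL1. Left and right pools overlapped for all 8, and lay apart for 0.253% of all genes. The neuron marker sum was 3964 ± 624 CPM on the left and 4357 ± 536 CPM on the right.

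No gene of the 9 was called by labelled sex in neurons, where edgeR's quasi-likelihood test called 8 of 13944 genes (0.0574%) and DESeq2 461. Rgs9, Prkd1, Sntg1 and Man2a1, 4 of the 9, had an unadjusted p under 0.05 in edgeR and in DESeq2. So did 19.3% of all genes in edgeR and 2330 of 13944 in DESeq2. Rgs9 was at 101, 134 and 149 CPM in male-labelled pools and 127, 142 and 174 CPM in female-labelled pools (log2 0.19 ± 0.06, female over male, adjusted p = 0.118 in edgeR). Prkd1 (-0.11 ± 0.04) and Sntg1 (-0.18 ± 0.06) were lower in female-labelled pools and Man2a1 (0.10 ± 0.04) higher, with adjusted p of 0.149, 0.128 and 0.191 in edgeR. Pools of the labelled sexes overlapped for all 9 genes, and lay apart for 1.1% of all genes. The count of all genes called by sex ranged from 0 to 576 with 1 pool left out, the highest without MR1, with 0 of the 9 in each.

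Without ML1 and FL1, still 0 of the 9 were called and 5 had an unadjusted p under 0.05, with Zbtb7c as the fifth (-0.18 ± 0.07, adjusted p = 0.223 in edgeR). Rgs9 was then at 0.17 ± 0.07 and Prkd1 at -0.12 ± 0.04. Fits of the side difference in the labelled sexes were compared by their interaction: 0 of the 9 and 0 of 13944 genes (0.0%) were called by edgeR's quasi-likelihood test or by DESeq2. Under an unadjusted p of 0.05 in edgeR were 0 of the 9 and 4.09% of all genes. That number of the 9 was 1 without ML3, and 1 without the nuclei with the 5% highest doublet scores. Man2a1 had the largest interaction of the 9 against its error, 0.15 ± 0.07, and Tmem132d the smallest, -0.003 ± 0.157. Without ML1 and FL1 it was 0.14 ± 0.09 for Man2a1, and that of Rasgef1b was 0.23 ± 0.12.

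Genes of the same families and complexes were followed from 9 lists with 72 genes, of which 68 were tested by side in neurons. None of the 68 was called by edgeR's quasi-likelihood test, against 0.143% of all genes, and 11 had an unadjusted p under 0.05, against 6.86%. That number was 6 without FR2 and 19 without ML2. Of the 68, DESeq2 called 2, beside 66 of all 13944 genes. Both are partners of Sntg1 in the dystrophin complex. They were Sntb1, which encodes beta-1-syntrophin (log2 0.21 ± 0.05, adjusted p = 0.0263 in DESeq2), and Dtnb, which encodes beta-dystrobrevin (0.18 ± 0.05, adjusted p = 0.0411 in DESeq2). In the same complex 9 of 12 genes had a positive log2 difference, with a median of 0.10, and 4 had an unadjusted p under 0.05 in edgeR.

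Sntb1 was at 204 ± 13.9 CPM on the left and 235 ± 16.4 CPM on the right, with overlapping pools (adjusted p = 0.192 in edgeR). Over all 68 genes 34 were positive, with a median of 0.01 beside -0.01 over all genes tested. All 4 other Tmem132 genes had a negative log2 difference, opposite to Tmem132d, with Tmem132b at -0.26 ± 0.09 (adjusted p = 0.552 in edgeR). Among Nogo receptor genes, Rtn4rl1 was at 148 ± 8.95 CPM on the left and 162 ± 5.39 CPM on the right (0.13 ± 0.04, adjusted p = 0.521 in edgeR).

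Of the protein kinase D and C genes Prkcq was at 14.1 ± 5.08 and 18.7 ± 4.33 CPM (0.43 ± 0.18), with overlapping pools. Of the N-glycan enzymes Man1c1, an alpha-mannosidase that acts before Man2a1, was at 158 ± 6.86 and 179 ± 13.7 CPM (0.18 ± 0.05, adjusted p = 0.372 in edgeR). Of the neuronal calcium sensors 1 of 9 was positive, Hpcal1 at 0.13 ± 0.06, and the list's median was -0.09. The R7 RGS list (6 genes, median 0.01), the Rasgef1 and Rap2 list (4 genes, median -0.03) and the Zbtb7 list (2 genes, median 0.01) held no gene with an unadjusted p under 0.05.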

How the data were processed

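The deposited matrix holds raw UMI counts per nucleus and gene, with pool and sublibrary of each nucleus in a second table. Per the labels, Evercode version 2 kits were used and the nuclei were split into 8 sublibraries; the submitters' processing notes name the genome build mRatBN7.2, R 4.3.2 and Seurat 4.1.3, and the aligner is not given in the sources used here. A floor of 300 genes and a ceiling of 5% mitochondrial UMIs per nucleus left 36740 of 36741. Scrublet called 2 doublets (0.00544%), too few for the caller to have worked. Nuclei were clustered with scanpy 1.11.5 and leidenalg 0.10.2 at resolution 1, and neurons again on Pearson residuals of 2000 genes. Names are by likeness to marker lists; the rule for neurons (3 markers at 1.5-fold over the classes with least neuronal RNA) was set after values were seen. UMIs were summed per class and pool and, where no pool had under 20 nuclei of the class, tested with edgeR 4.0.16 (TMM, filterByExpr, quasi-likelihood F test, side and labelled sex as terms, Benjamini-Hochberg over all genes) under R 4.3.3, with DESeq2 1.42.0 as an alternative. CPM within subclusters and classes divides by the UMIs of that subcluster or class. Equal shares weight the CPM of the 20 subclusters present in every pool by their share over all pools. The 9 genes and the partner lists (named by family or complex) were chosen with earlier results of these data known; named genes are the 9, partners called (else the smallest p per list) and the 3 genes most like each of the 9, of which those with a symbol are printed in part. The test was also run on simulated counts with changes larger than those of the 9 genes, so nothing is read from that run for them.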

Additional observations from a re-analysis of the deposited data

Results flagged for a closer look

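In 52 groups of 6 pools (each gene by side in neurons, satellite glia and Schwann cells) 4 had 1 pool farther from the rest than Dixon's 95% limit, a rate near the 1 in 20 that chance gives; none was in neurons. In satellite glia, Rasgef1b in FR1 was at 34.0 CPM against 44.4 to 49.3 CPM in the other right pools, Man2a1 in FL3 was at 123 CPM against 87.8 to 99.0 CPM in the other left pools, and Ncald in ML1 was at 372 CPM against 402 to 415 CPM. In myelinating Schwann cells, Ncald in ML2 was at 359 CPM against 180 to 230 CPM in the other left pools.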

How the results depend on the processing

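By side in neurons the number of the 9 genes called, 8, was 0 without ML1 and FL1, 0 without the Xylt1-led subcluster, 2 at clustering resolution 2 and 1 to 5 with 1 pool left out. The number of all genes called, 20, was 50 without the low-count filter, 66 with DESeq2, 1 without ML1 and FL1, 6 at resolution 2, 2 without the Xylt1-led subcluster and 3 to 16 with 1 pool left out. With the pool number as a replicate block it was 2 of the 9 genes and 3 of all genes; same-numbered left and right pools correlated at 0.02, 0.46 and -0.08 (male-labelled) and 0.08, -0.14 and -0.05 (female-labelled), so not every pair was over 0.1. The pair at 0.46 was the highest of the 18 left-right pairs, ML1 and FL1 have doubtful sex labels, and whether a number marks shared rats cannot be told from these values. The block could not be fitted for labelled sex, and was not run for the interaction. Of the partner genes 0 were called, and 2 with DESeq2. The number of the 9 genes called by sex, by interaction and in both glial classes was 0 under every alternative run. All genes called by sex, 8, were 638 without the filter, 461 with DESeq2 and 40 without ML1 and FL1, and in satellite glia and Schwann cells 9 and 14 were called without the filter, against 0; in Schwann cells it was also 0 to 3 with 1 pool left out and 3 at resolution 0.5. The cause of these changes was not tested. Of 853 single values under the alternatives, 0 of the side differences in neurons reversed and 27 moved by more than their SE, 8 with equal subcluster shares, 8 with equal shares of clusters made without side genes (chosen after seeing the data), 7 without the Xylt1-led subcluster, 3 with nuclei thinned to 1000 UMIs and 1 without ML1 and FL1. Of the uncalled values 56 changed sign, Crtac1 in satellite glia among them (0.30, and -0.02 at resolution 0.5), all with a main log2 difference of at most 0.30 in size.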

Other observations

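At an equal depth of 1000 UMIs per neuron (354 left and 658 right neurons fell below it), the share of neurons with a Crtac1 UMI was 12.9 ± 1.58% in left pools and 16.7 ± 0.39% in right pools, and without thinning 28.8 ± 4.03% and 33.3 ± 4.42%. For Rasgef1b the thinned shares were 13.7 ± 1.11% and 12.3 ± 0.80%, with overlapping pools (11.7 to 15.1% and 11.1 to 12.9%), and without thinning 33.8 ± 2.58% and 27.9 ± 2.79%. For Prkd1 they were 25.7 ± 1.08% and 29.4 ± 1.28%, without overlap, and without thinning 54.2 ± 3.38% and 56.0 ± 3.06%. The thinned mean UMIs gave log2 differences of 0.47 for Crtac1, 0.24 for Prkd1 and -0.21 for Rasgef1b. For Rasgef1b the thinned UMIs per 1000 neurons overlapped, at 152 to 180 in left pools and 137 to 154 in right pools. Median UMIs per neuron were 2383.5 to 3939 in left pools and 2090.5 to 3529 in right pools. For every sex label and number the left pool had the higher median. In satellite glia, with neuronal RNA, 21.5% of nuclei had a Crtac1 UMI, 12.3% a Rasgef1b UMI and 42.6% a Prkd1 UMI at their own depth.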
